A study of Homo sapiens with 4 samples.

Results

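The MYC and MAX network described here is a set of 8 genes: MYC, its partner MAX, the MAX-binding antagonists MXD1, MXI1, MXD3, MXD4 and MNT, and the related factor MLX. They were measured in LNCaP, a human prostate cancer cell line, as 8 of the 20046 genes named on the array. Every probe that the platform annotation maps to a single one of these symbols was taken, which gave 16 of 47231 probes. Of these, 10 probes of 7 genes were bright enough to test, meaning detection p under 0.05 on at least 2 of the 4 arrays. The genes were chosen with the miR-31 comparison already known, so their differences are given as a description, with no p-value of their own.

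The miR-31 arrays held RNA from LNCaP cells transfected for 48 h with miR-31 at 50 nM, and the miR-NC arrays RNA from LNCaP cells transfected in the same way with miR-NC, a control microRNA, also at 50 nM. Both groups were kept in RPMI medium with 10% fetal bovine serum, and each had 2 Illumina bead arrays hybridised with biotin-labelled cRNA. The labels number the arrays as repeats but name no separate cultures, so each p-value reflects the spread among these arrays alone, and that spread may be technical. The design text also names prostate tissues profiled for microRNAs, which were not analysed here.

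MYC is a basic helix-loop-helix leucine zipper transcription factor that binds E-box DNA as a heterodimer with MAX and drives ribosome production, nucleotide synthesis and entry into the cell cycle. The MXD proteins, MXI1 and MNT compete for MAX and recruit the SIN3 histone deacetylase complex to the same sites, while MLX pairs with MNT, MXD1, MXD4 and the glucose-sensing factors MondoA and ChREBP. MYC is frequently amplified or overexpressed in prostate cancer.

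The main arm of the microRNA and the promoters that carry the motif bound by the network are shown first. The labels do not say which arm of miR-31 was transfected, and the RefSeq entry for the 5p arm, which lies on the minus strand at chr9:21512158-21512178 (GRCh38.p14), is printed with its seed, bases 2 to 8, in capitals.
hsa-miR-31-5p: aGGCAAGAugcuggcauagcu

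Among the 7 network genes other than MYC, 3 had the E-box CACGTG in a RefSeq promoter window of 300 bases, from 250 before to 50 after the gene's start. CACGTG reads the same on both strands, and it was found in 7.26% of all 35116 promoter windows. Counted by gene, it was found in 8.77% of 27305 genes with a window and in 13% of the tested ones. The 250 bases before the start are printed 5′ to 3′ on the gene's strand, with the motif in capitals, for MXD4 (chr4:2262110-2262359, minus strand, first base of the motif at -238 from the start), MNT (chr17:2401061-2401310, minus strand, motif at -193) and MLX (chr17:42566850-42567099, plus strand, motif at -50), all in GRCh38.p14.
MXD4: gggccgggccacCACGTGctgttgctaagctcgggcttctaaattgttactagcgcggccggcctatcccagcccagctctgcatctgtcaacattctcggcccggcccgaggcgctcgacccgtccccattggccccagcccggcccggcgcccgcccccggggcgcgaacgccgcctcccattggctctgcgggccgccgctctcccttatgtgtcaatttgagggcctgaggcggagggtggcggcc
MNT: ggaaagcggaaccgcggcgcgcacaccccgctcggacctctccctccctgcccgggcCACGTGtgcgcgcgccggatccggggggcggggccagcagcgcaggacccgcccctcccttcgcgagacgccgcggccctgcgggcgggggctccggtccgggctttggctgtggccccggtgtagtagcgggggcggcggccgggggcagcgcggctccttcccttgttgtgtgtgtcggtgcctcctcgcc
MLX: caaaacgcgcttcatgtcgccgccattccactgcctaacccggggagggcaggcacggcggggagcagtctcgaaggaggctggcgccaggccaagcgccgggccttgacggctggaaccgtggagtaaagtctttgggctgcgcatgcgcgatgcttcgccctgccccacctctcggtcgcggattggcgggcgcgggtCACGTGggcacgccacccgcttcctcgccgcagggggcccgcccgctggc
A match is a description of these letters only; whether any factor binds there was not measured.

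The cells carried the marks of their label. Of 7 luminal prostate and LNCaP markers measured, 6 were detected on all 4 arrays, among them TMPRSS2, KLK2, FOLH1 and KRT8, while the basal keratins KRT5 and KRT14 were detected on none. KRT18, a luminal keratin, was detected on 1 array at most. By level, 1 of the 6 tested luminal markers differed past the threshold: TMPRSS2, a prostate serine protease, read 11.14 and 11.28 in miR-31 cells, against 12.01 and 11.85 in miR-NC cells, and fell by 0.72 ± 0.14 (limma adjusted p = 0.0191). The differences of KLK2, FOLH1 and KRT8 were -0.71, -0.32 and 0.18, and 5 of the 6 were negative. Of all tested genes 7.66% passed the threshold and 51.8% had a negative difference. Between 34.6% and 40.7% of probes were detected per array, and the 2 arrays of a group correlated at 0.98 in each group, against 0.95 to 0.97 between groups. Over all tested probes, 1132 of 18354 passed an adjusted p of 0.05 with limma, 747 lower and 385 higher in miR-31 cells, so that 34% of the calls were higher. With arrays aligned on their medians in place of quantile normalization, the split changed to 57.5% higher, among 106 calls.

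MYC was lower in miR-31 cells by both of its probes, by about 2-fold. The first probe, ILMN_1680618, read 11.08 and 10.89 in miR-31 cells, against 12.19 and 11.98 in miR-NC cells, in normalized log2 intensity. The second, ILMN_2110908, read 9.30 and 9.37 in miR-31 cells, against 10.34 and 10.42 in miR-NC cells. By each probe both miR-31 arrays lay below both miR-NC arrays, and the gap between groups was several times the gap between repeats.

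**Figure D1:**
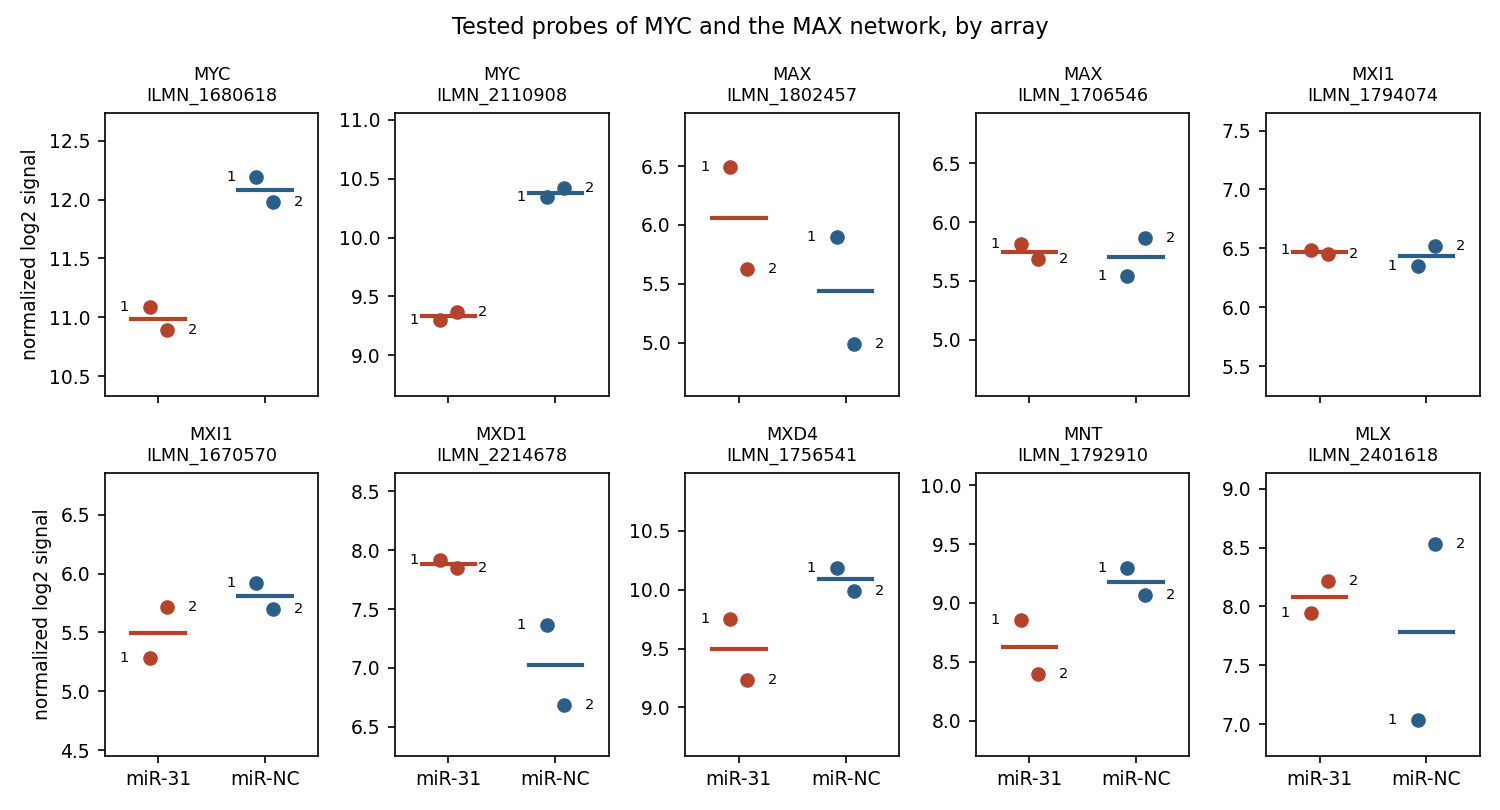
Normalized log2 intensity of the 10 tested network probes (vertical axis) on each array, with miR-31 arrays left of miR-NC arrays, a bar at each group's mean and the repeat number beside each point. Both MYC probes sit near 11 and 9.3 in miR-31 cells and near 12 and 10.4 in miR-NC cells, while the MLX points of miR-NC lie 1.50 apart.

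The log2 difference was -1.09 ± 0.15 for ILMN_1680618, a 2.14-fold lower signal, and -1.05 ± 0.16 for ILMN_2110908, a 2.07-fold lower signal (limma standard error, n = 2 arrays per group). Before any normalization the first probe gave 1777 and 1976 units of raw intensity in miR-31 cells and 5838 and 3678 units in miR-NC cells. Both raw miR-31 values were therefore also below both raw miR-NC values. The raw medians of the whole arrays lay in the same order, at 82.5 and 74.6 units for miR-31 and 92.5 and 86.4 units for miR-NC. MYC lay far down the range of all differences: only 2.33% of tested probes had a lower value than its first probe and 2.66% than its second.

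These 2 probes were the only network probes past the threshold, in a comparison where 6.17% of all tested probes passed, 4.07% lower and 2.1% higher. By limma 0 network probes were higher and 2 lower, and at an unadjusted p under 0.05 the counts were 1 higher and 4 lower, beside 10.2% higher and 12% lower of all tested probes. By gene, 1 of 7 tested members passed, beside 7.66% of all tested genes. No result about the network is read from these counts, because the genes were chosen on this comparison. In bulk RNA, fewer cells expressing a gene and less RNA per cell cannot be told apart.

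MAX, the obligate partner of MYC and of its antagonists, did not pass the threshold by either tested probe. Its 4 probes are annotated to 4 different transcripts, and 2 were bright enough to test. ILMN_1706546 read 5.81 and 5.68 in miR-31 cells and 5.54 and 5.86 in miR-NC cells. ILMN_1802457 read 6.50 and 5.62 in miR-31 cells and 5.90 and 4.98 in miR-NC cells, and was not detected on the last of these arrays. The groups overlapped by both probes, with differences of 0.04 ± 0.28 and 0.62 ± 0.40, and the signal was dim throughout. Leaving out single arrays gave 0.16 to 1.07 for ILMN_1802457. The other 2 MAX probes were detected on no array.

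MXD1, which replaces MYC at MAX in differentiating cells, was the antagonist with the highest difference. It read 7.91 and 7.85 in miR-31 cells, against 7.36 and 6.69 in miR-NC cells. Both miR-31 arrays were above both miR-NC arrays, but the 2 miR-NC arrays differed by 0.68, a gap exceeded by 8.88% of tested probes. The difference of 0.85 ± 0.27, a 1.81-fold higher signal, did not pass the threshold over all probes. It stood at 1.19 and passed without miR-NC repeat 1, and at 0.52 without miR-NC repeat 2.

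MXI1, the MAX-interacting protein also called MXD2, overlapped between the groups by both tested probes. ILMN_1794074 read 6.48 and 6.45 in miR-31 cells and 6.35 and 6.52 in miR-NC cells. ILMN_1670570 read 5.29 and 5.71 in miR-31 cells and 5.92 and 5.70 in miR-NC cells. The differences were 0.03 ± 0.26 and -0.31 ± 0.29, and the second ranged from -0.52 to -0.10 with single arrays left out. The other 2 MXI1 probes were not detected on any array.

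MXD4 and MNT, whose promoters are printed above, both read lower in miR-31 cells without passing the threshold. MXD4, an antagonist associated with quiescent and differentiated cells, gave 9.75 and 9.24 in miR-31 cells, against 10.19 and 9.99 in miR-NC cells. MNT, the antagonist that most cells express alongside MYC, gave 8.85 and 8.40 in miR-31 cells, against 9.30 and 9.06 in miR-NC cells. For both genes the 2 miR-31 arrays lay below both miR-NC arrays, and the second miR-31 array was the lowest of the 4. The differences were -0.59 ± 0.20 for MXD4 and -0.55 ± 0.21 for MNT, which are 1.51-fold and 1.47-fold lower signals. Leaving out single arrays gave -0.85 to -0.34 for MXD4 and -0.78 to -0.33 for MNT.

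MXD3, an antagonist made by proliferating cells, was not detected on any array and was not tested. Its single probe read 4.69 and 5.29 in miR-31 cells and 4.61 and 5.03 in miR-NC cells, all within background.

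MLX, the MAX-like partner of MondoA and ChREBP, was the network gene whose control arrays lay farthest apart. ILMN_2401618 read 7.95 and 8.22 in miR-31 cells and 7.03 and 8.53 in miR-NC cells. The miR-NC arrays enclosed both miR-31 arrays, and their gap of 1.50 was exceeded at only 1.23% of tested probes. The difference of 0.30 ± 0.41 became 1.05, past the threshold, without miR-NC repeat 2, and -0.45 without miR-NC repeat 1. The second MLX probe was detected on 1 array and was not tested.

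**Figure D2:**
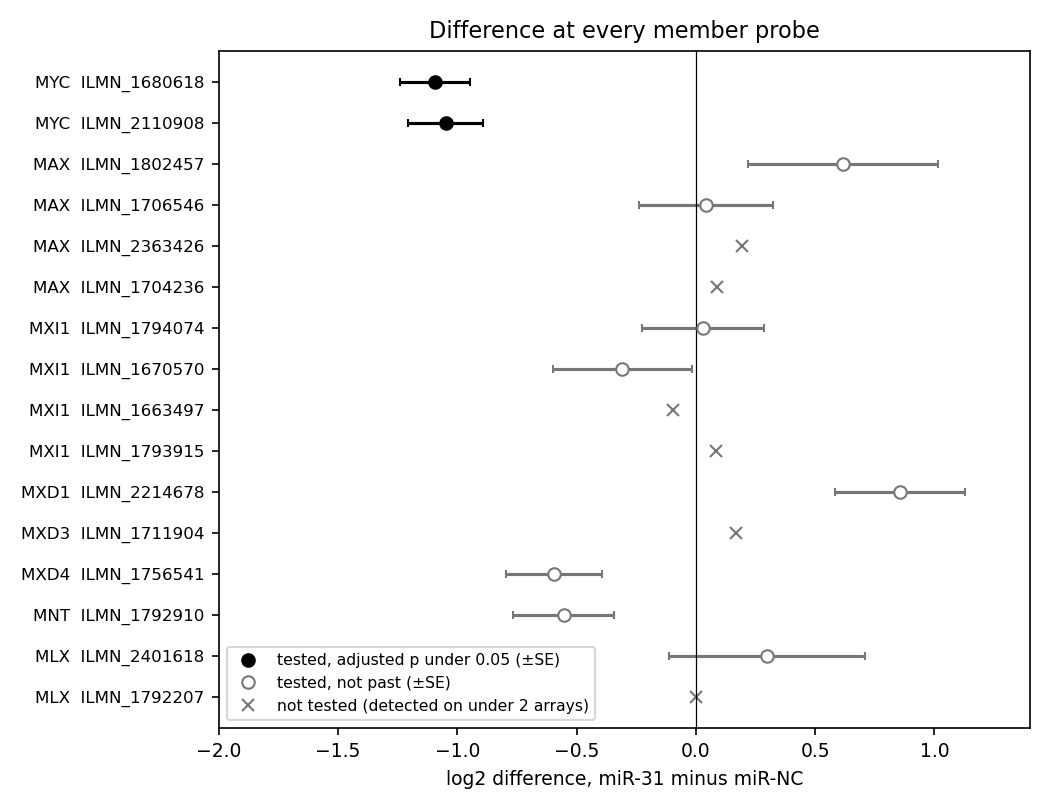
Log2 difference, miR-31 minus miR-NC, for all 16 network probes, with limma standard errors as bars for the 10 tested, filled points for an adjusted p under 0.05 and crosses for the 6 not tested. The 2 MYC probes, at -1.09 and -1.05, are the filled points, and the other tested probes lie between -0.59 and 0.85.

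Seen as a set, the 10 tested probes split into 5 with a negative and 5 with a positive difference, with a median of -0.14 against -0.01 over all tested probes. The groups did not overlap at 4 probes lower in miR-31 cells and at 1 probe higher, beside 27.6% and 24% of all tested probes, or 51.5% in both directions. By the brightest tested probe of each gene, the MYC difference was lower than that of every other tested member. Its difference minus that of MXD1 was -1.95 on the log2 scale, minus that of MAX -1.71 and minus that of MLX -1.39. Minus that of MXI1 it was -1.13, minus that of MNT -0.54 and minus that of MXD4 -0.50. The gaps to MXD1, MAX and MLX rest on differences that moved widely with single arrays left out, as given above. These gaps are descriptions and were not tested.

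Of the network genes outside the set, MGA, a large MAX-binding repressor, was the 1 of 5 that could be tested. It read 7.56 and 7.65 in miR-31 cells and 7.75 and 7.63 in miR-NC cells, which overlap, for a difference of -0.08 ± 0.22. MYCN and MYCL, the other MYC family members, and MLXIP and MLXIPL, which encode MondoA and ChREBP, were detected on at most 1 array.

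Factors that act on MYC transcription or mRNA mostly did not pass the threshold, and the exception binds MYC mRNA. HNRNPD, known as AUF1, binds AU-rich elements and promotes decay of MYC mRNA. It gave 11.83 and 12.10 in miR-31 cells, against 12.58 and 12.57 in miR-NC cells, and fell by 0.61 ± 0.14 (limma adjusted p = 0.036), with its second probe also past the threshold at -0.79. CNBP, which binds a MYC promoter element, gave -0.62 ± 0.16 (limma adjusted p = 0.0539) by its brightest probe and passed at -0.95 by another. CTNNB1, the beta-catenin coactivator of MYC transcription, gave 0.65 ± 0.22 (limma adjusted p = 0.127) by its brightest probe and 0.85, also not past, by its second. YBX1, an mRNA-binding protein, gave -0.28 ± 0.13 (limma adjusted p = 0.254). Of 8 tested genes 1 was lower and 0 were higher by limma, beside 5.24% and 2.43% of all 10754 tested genes, and 2 were lower and 1 higher at an unadjusted p under 0.05, beside 14.7% and 10.7% of all tested genes.

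Among 8 tested regulators of MYC protein turnover, 2 passed the threshold, both lower. SKP2, an F-box ubiquitin ligase subunit that targets MYC and the inhibitor CDKN1B, gave 8.26 and 8.37 in miR-31 cells, against 10.04 and 9.93 in miR-NC cells. It fell by 1.67 ± 0.17, a 3.19-fold lower signal (limma adjusted p = 0.00192). AURKA, a mitotic kinase known to stabilise MYC family proteins, gave 8.27 and 8.19 in miR-31 cells, against 9.46 and 9.20 in miR-NC cells. It fell by 1.10 ± 0.19 (limma adjusted p = 0.0122), with its other probe past the threshold at -1.05. STUB1, a chaperone-associated ubiquitin ligase, differed by 2.07 by its second probe, which did not pass. Its brightest probe read 9.43 and 10.21 in miR-31 cells and 7.55 and 9.31 in miR-NC cells. The difference of that brightest probe, 1.39 ± 0.48, did not pass either (limma adjusted p = 0.128). Without miR-NC repeat 2 it was 2.27 and passed, and without miR-NC repeat 1 it was 0.51. FBXO28, another F-box ligase of MYC, gave -0.41 ± 0.15 (limma adjusted p = 0.133) by its brightest probe and 0.09 by its second. None of the 8 was higher by limma, while 5.24% of all tested genes were lower and 2.43% higher. At an unadjusted p under 0.05 the counts were 2 higher and 4 lower, beside 10.7% and 14.7% of all tested genes.

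No coactivator of MYC passed the threshold. Of 12 tested, limma called 0 in either direction, beside 7.66% of all tested genes. At an unadjusted p under 0.05, 1 was higher and 1 lower, beside 10.7% and 14.7% of all tested genes. ACTL6A, an actin-like subunit of chromatin remodelling and TIP60 complexes, gave -0.49 ± 0.14 (limma adjusted p = 0.0816), and HCFC1, a chromatin cofactor that binds MYC, gave -0.42 ± 0.19 (limma adjusted p = 0.239). EP400, the TIP60 complex ATPase, gave 0.44 ± 0.18 (limma adjusted p = 0.193), and RUVBL2, an ATPase of the same complex, gave 0.49 ± 0.23 (limma adjusted p = 0.248). RUVBL2 was at 0.82 and passed without miR-NC repeat 2, and at 0.16 without miR-NC repeat 1.

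On the antagonist side, the SIN3 corepressor subunits that MXD proteins and MNT recruit held 1 called gene among 8 tested. SAP30, a linker subunit of the complex, gave 6.25 and 6.57 in miR-31 cells, against 8.06 and 8.02 in miR-NC cells, and fell by 1.63 ± 0.24, a 3.09-fold lower signal (limma adjusted p = 0.00755). HDAC2, the deacetylase, gave -0.52 ± 0.14 (limma adjusted p = 0.0704), SIN3B gave -0.43 ± 0.23 (limma adjusted p = 0.309) and ARID4B gave 0.63 ± 0.23 (limma adjusted p = 0.147). ARID4B was at 0.92 and passed without miR-NC repeat 2, and at 0.34 without miR-NC repeat 1, while SIN3B ranged from -0.67 to -0.18 with single arrays left out. None of the 8 was higher by limma, while 5.24% of all tested genes were lower and 2.43% higher. Of the 8, 7 had a negative difference, beside 51.8% of all tested genes, but some of these lay close to no difference. RBBP4 at -0.002 and HDAC1 at -0.005, both named after their values were seen, had overlapping groups. The list median was -0.11, against -0.02 over all tested genes. At an unadjusted p under 0.05 the counts were 1 higher and 2 lower, beside 10.7% and 14.7% of all tested genes.

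Genes known to be activated by MYC were lower in 8 of 43 tested cases and higher in 0 by limma. Of all tested genes, 5.24% were lower and 2.43% higher by limma. At an unadjusted p under 0.05 the counts were 21 lower and 1 higher, beside 14.7% lower and 10.7% higher of all tested genes. Their median difference was -0.32, against -0.02 over all tested genes, and 32 of 43 were negative, beside 51.8% of all tested genes. HSPE1, the gene at the median and named after its value was seen, gave 1.01 by its other probe, which did not pass. The other probes of PRDX3 and PAICS were lower. These counts and the median rest on 1 probe a gene, the brightest. The span ran from -1.14 for RCC1, a guanine nucleotide exchange factor (limma adjusted p = 0.0743), to 1.23 for RRP9, a ribosomal RNA processing factor (limma adjusted p = 0.235), both named for their place after their values were seen. Without miR-NC repeat 2 both passed, RCC1 at -1.46 and RRP9 at 2.15, and without miR-NC repeat 1 RRP9 was at 0.30.

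PRDX3, a mitochondrial peroxiredoxin, read 11.67 and 11.62 in miR-31 cells, against 12.59 and 12.69 in miR-NC cells, and fell by 1.00 ± 0.13 (limma adjusted p = 0.00439). PAICS, an enzyme of purine synthesis, read 12.03 and 12.07 in miR-31 cells, against 13.09 and 12.89 in miR-NC cells, and fell by 0.94 ± 0.13 (limma adjusted p = 0.00558). The second probes of both genes also passed, at -1.10 for PRDX3 and -0.89 for PAICS. SHMT1, the cytosolic serine hydroxymethyltransferase, fell by 0.97 ± 0.16 (limma adjusted p = 0.0115), although its second probe, at -0.63, did not pass. NOP2, a ribosomal RNA methyltransferase, fell by 0.86 ± 0.17 (limma adjusted p = 0.0219), with its other probes at -0.58 and 0.01 not past. The remaining 4 called genes were named after their values were seen. They were the mitochondrial transcription factor TFAM at -0.74, the nucleolar proteins NOP56 at -0.70 and BOP1 at -0.66, and the kinase CDK4 at -0.58. BOP1 and CDK4 lay near the threshold (limma adjusted p = 0.0491 and 0.0441). Both lost their calls with cyclic loess, with the authors' values and with no filter, and BOP1 also without background correction. ODC1, a classical MYC target in polyamine synthesis, was also picked after its values were seen, and differed by 0.01 with overlapping groups.

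**Figure D3:**
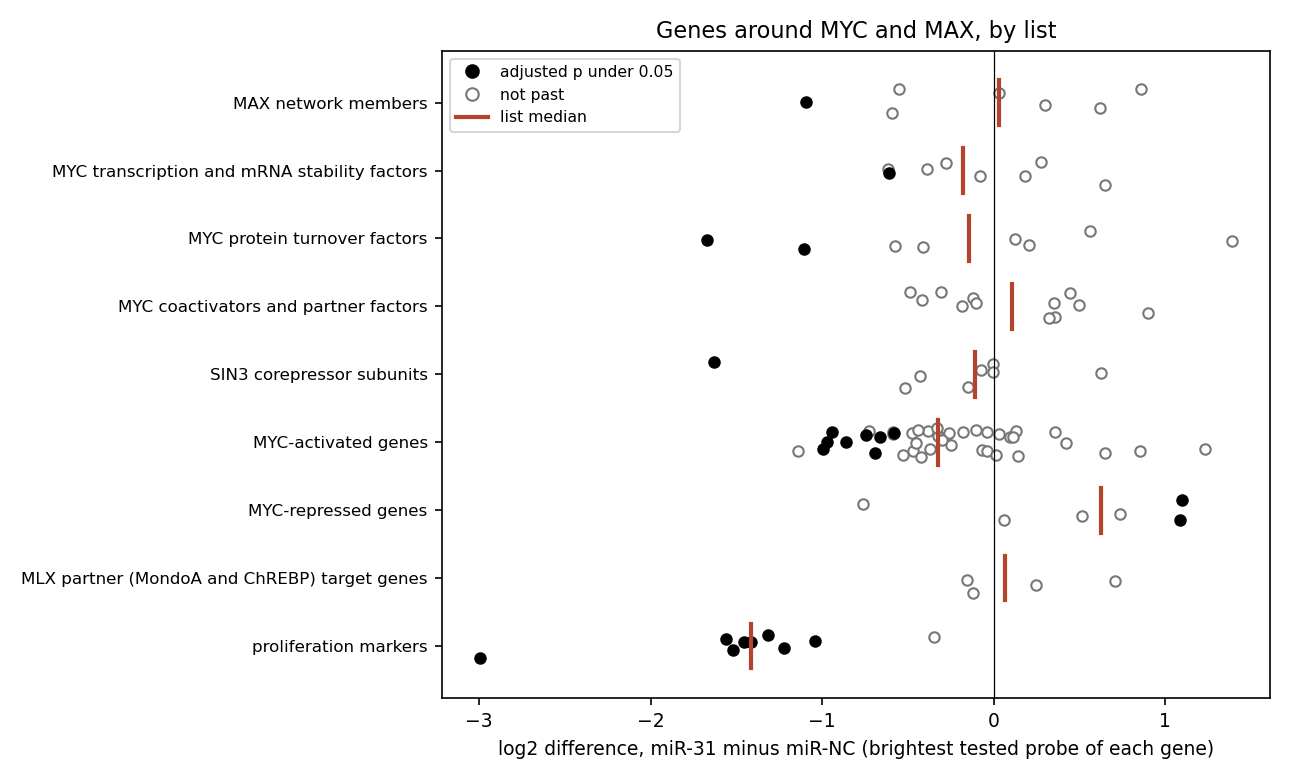
Log2 difference, miR-31 minus miR-NC, of each tested gene in the lists around MYC, 1 point a gene with its brightest tested probe, filled where limma's adjusted p was under 0.05, with a red bar at each list's median. The MYC-activated genes centre on -0.32, the MYC-repressed genes on 0.62 and the proliferation markers on -1.42.

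Genes known to be repressed by MYC gave 2 calls among 6 tested, both higher, beside 2.43% higher and 5.24% lower of all tested genes. CDKN1A, the cyclin-dependent kinase inhibitor repressed by MYC through MIZ1, read 14.02 and 14.09 in miR-31 cells, against 13.14 and 12.78 in miR-NC cells, and rose by 1.10 ± 0.14 (limma adjusted p = 0.00474). CDKN2B, a second inhibitor of the same kind, read 7.42 and 7.34 in miR-31 cells, against 6.14 and 6.45 in miR-NC cells, and rose by 1.09 ± 0.25 (limma adjusted p = 0.0396), while its second probe gave 0.85 and did not pass. GADD45A, a growth arrest gene, gave 0.73 ± 0.22 (limma adjusted p = 0.0814) by its brightest probe and passed at 0.82 by its second. NDRG1, a differentiation-linked gene, gave 0.51 ± 0.16 (limma adjusted p = 0.105). No gene was lower by limma. At an unadjusted p under 0.05 the counts were 4 higher and 1 lower, beside 10.7% and 14.7% of all tested genes. The lower gene was THBS1, an angiogenesis inhibitor, at -0.76, named after its value was seen.

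Targets of MLX and its partners did not pass the threshold in either direction. ARRDC4, an arrestin-like MondoA target, read 8.68 and 8.67 in miR-31 cells, against 8.09 and 7.85 in miR-NC cells, for 0.71 ± 0.20 (limma adjusted p = 0.0743). TXNIP, the best known target of MondoA, gave -0.12 ± 0.13 (limma adjusted p = 0.666) with overlapping groups. PKLR, a ChREBP target in glycolysis, gave 0.24 ± 0.30 (limma adjusted p = 0.698). KLF10, a zinc finger repressor, gave -0.16 ± 0.35 (limma adjusted p = 0.849), a sign that turned under median alignment and cyclic loess. Of these 4 genes limma called 0, beside 7.66% of all tested genes, and 1 was higher at an unadjusted p under 0.05, beside 10.7%.

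Proliferation markers moved with MYC on the same arrays. Of 9 tested, 8 were lower, beside 5.24% of all tested genes, and PCNA, at -0.35, named after its value was seen, did not pass. The second PCNA probe gave 0.47 with overlapping groups and did not pass. The median difference of the list was -1.42, against -0.02 over all tested genes. MCM2, a replication helicase subunit, read 6.11 and 6.20 in miR-31 cells, against 9.10 and 9.21 in miR-NC cells, and fell by 2.996 ± 0.22, a 7.98-fold lower signal (limma adjusted p = 0.00102). The mitotic kinase CDK1 fell by 1.46, the topoisomerase TOP2A fell by 1.52 and the cyclin CCNA2 fell by 1.56. The summed linear signal of the list was 3562 and 3551 in miR-31 cells and 8066 and 7389 in miR-NC cells, with MKI67 detected on no array. The share of proliferating cells was not measured, and its part in the MYC difference was not tested. Mesenchymal markers summed to 668 and 678 in miR-31 cells and 517 and 494 in miR-NC cells, with COL1A2 and ZEB1 detected on no array. Leukocyte markers summed to 303 and 295 in miR-31 cells and 337 and 287 in miR-NC cells, with CD3E and TYROBP detected on none. COL1A1, DCN and PTPRC were detected on 1 array at most, so these sums mostly reflect VIM and CD68 and not a group of markers. VIM, the mesenchymal marker tested, gave 0.46 ± 0.18 (limma adjusted p = 0.159), and CD68, the leukocyte marker tested, gave -0.004 ± 0.22 (limma adjusted p = 0.996), a sign that turned under cyclic loess. Luminal markers summed to 7644 and 8497 in miR-31 cells and 11485 and 9537 in miR-NC cells. The part of these shifts in the network's values was not tested.

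The MYC difference kept its sign under all 13 alternatives run, but many of them could not turn it. Changes of the filter, the variance trend and the replicate block leave the estimate as it is. Leaving out a single array could not turn the sign either, because the groups did not overlap by either probe. The MYC difference ranged from -1.20 to -0.99 for ILMN_1680618 and from -1.17 to -0.97 for ILMN_2110908. The call did not hold with median alignment, without an intensity trend in the variance, or without either miR-31 array. The 19 called genes named from the lists depended on the same arrays: none passed without miR-31 repeat 1 or without miR-31 repeat 2, and median alignment kept the calls of CDKN1A and MCM2.

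**Figure D4:**
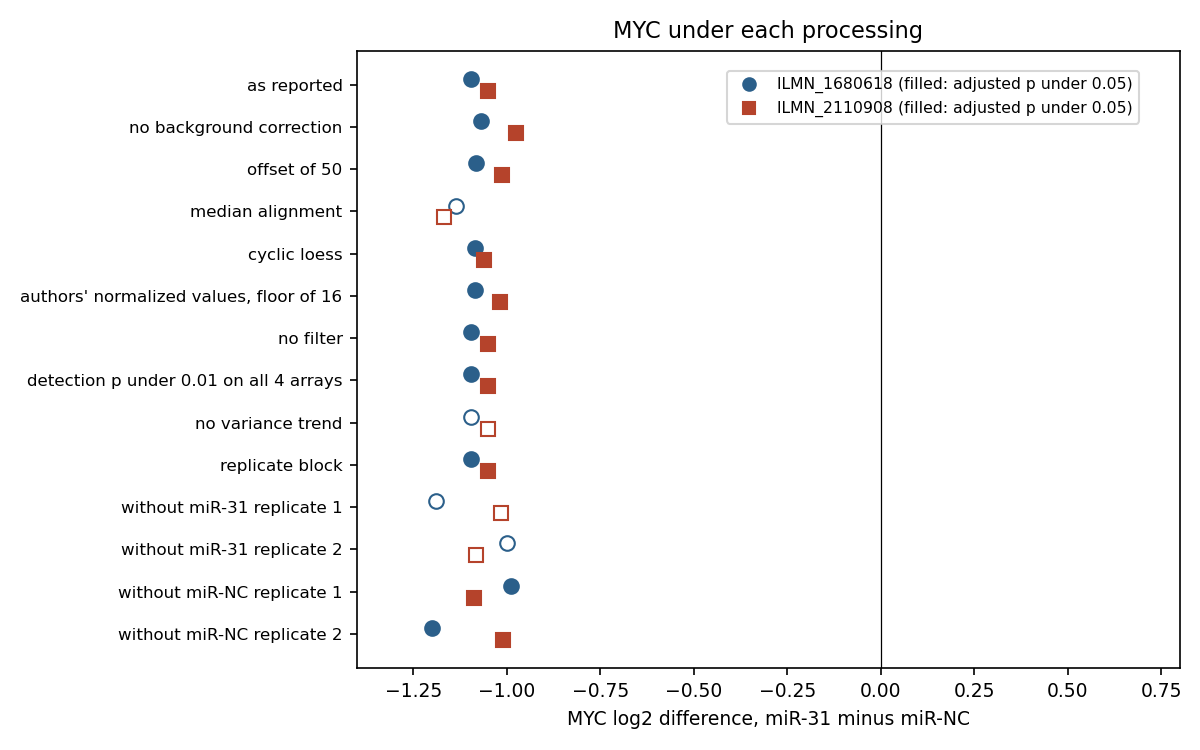
Log2 difference of the 2 MYC probes, miR-31 minus miR-NC, as reported and under 13 alternatives, filled where limma's adjusted p was under 0.05. All points lie between -1.20 and -0.97, and the open points are those of median alignment, no variance trend and the settings without a miR-31 array.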

How the data were processed

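The deposited table holds, per the file headers, non-normalized intensity for 47231 probes on 4 arrays. The submitters' processing notes name BeadStudio, with no version or settings. A deposited score beside each intensity, headed as a detection p-value per the file headers, runs from 0 for dim to 1 for bright probes, so 1 minus that score was used. The authors' normalized intensity for the same probes came in another table. Its columns share a median of 14.3, about 25.1% of values are at or below 0, and each keeps its array's rank order (rank correlation 0.999999), so it was read as linear and background-subtracted, with no centring or ratio direction. How the authors made it is not given in any source used, and it served as an alternative.

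The neqc procedure of limma 3.58.1, run in R 4.3.3 with an offset of 16, gave background-corrected, quantile-normalized log2 values. Testing covered the 18354 probes (38.9%) with detection p under 0.05 on 2 or more arrays. The fit used lmFit and eBayes with an intensity trend, two-sided, with Benjamini-Hochberg adjustment over all tested probes and a threshold of 0.05. There were 2 residual degrees of freedom, and the prior contributed 7.19. An exact permutation test of 2 against 2 arrays cannot go below a two-sided p of 0.333, so calls rest on the spread limma shares across probes, and the number of arrays limits the precision. The fit was tested on simulated data.

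Of the probes, 30113 had 1 gene symbol in the platform annotation, 8 had several and 17110 had none; Entrez identifiers matched 30074 to current symbols. In gene lists each gene was represented by its brightest tested probe, by the mean of 4 arrays. Named genes were every network member, up to 4 genes with the smallest p from each other list (all of a list of 5 or fewer), and the 3 genes most like MYC. The members and lists were chosen with earlier results of these data known. Alternatives covered background correction, offset, normalization, the authors' values, the filter, the variance trend, a block for replicate number, and leaving out each array.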

Additional observations from a re-analysis of the deposited data

How the results depend on the processing

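The 2 called network probes became 0 with median alignment and without a variance trend, and 4 with the replicate block, which added MXD1 higher and MXD4 lower; leaving out single arrays gave 0 to 3. At an unadjusted p under 0.05, 2 network probes passed with median alignment and 4 without the trend. Over all tested probes the 1132 calls became 106 with median alignment, 359 without the trend and 2536 with the replicate block, and 0 to 2085 with arrays left out. The counts of 0 came without miR-31 repeat 1, where 3022 probes had an unadjusted p under 0.05, and without miR-31 repeat 2, with 2759, and the count of 2085 came without miR-NC repeat 2. The share of calls that were higher was 34% as reported, 20.1% without the trend, 47.6% with the replicate block and 54.3% without miR-NC repeat 2. The 8 called MYC-activated genes became 0 with median alignment (5 at an unadjusted p under 0.05), 0 without the trend (16 unadjusted), 15 with the replicate block and 0 to 15 with arrays left out. Same-numbered arrays deviated from their group means with a correlation of 0.22 over the tested probes. With only 2 pairs this value cannot decide whether the numbers pair the arrays, and the main fit did not pair them. Of 19 called genes named from the lists, median alignment kept CDKN1A and MCM2, and the fit without a trend kept 6. No such gene passed without either miR-31 array. KLF10 turned to 0.032 with median alignment and 0.052 with cyclic loess, and spanned -0.64 to 0.33 with arrays left out. CD68 turned to 0.0056 with cyclic loess. Omitting single arrays gave -0.21 to 0.20 for CD68, -0.078 to 0.43 for KRT8, -0.0044 to 0.028 for ODC1, -0.12 to 0.20 for MAX ILMN_1706546, -0.45 to 1.05 for MLX and -0.052 to 0.11 for MXI1 ILMN_1794074. Without miR-NC repeat 1 GADD45A passed at 1.02, and without miR-NC repeat 2 CNBP passed at -0.62. With an array omitted, the lone array of its group is assumed to vary like the other group. The cause of the changed calls was not tested. Probes near background, those of MAX, MXI1 and MXD3 among them, limit what could be measured.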

Other observations

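Among 9103 genes detected on all 4 arrays, those whose pattern was nearest to that of MYC, by Euclidean distance of centred log2 values over the 4 arrays, were KIF23, CARHSP1 and CCDC32. KIF23, a kinesin of cell division, read 6.76 and 6.59 in miR-31 cells and 7.85 and 7.66 in miR-NC cells, at a distance of 0.029. CARHSP1, an RNA-binding protein, read 8.68 and 8.52 in miR-31 cells and 9.78 and 9.54 in miR-NC cells, at 0.045. CCDC32 read 9.28 and 9.11 in miR-31 cells and 10.36 and 10.21 in miR-NC cells, at 0.050.

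The E-box CACGTG lay in the promoter windows of 20 of the 37 tested MYC-activated genes that had one (54.1%), beside 13% of 8761 tested genes with a window. Among MYC-activated genes it was present in 4 of 7 that were lower and 16 of 30 that did not pass. Over all tested genes it was present in 14.5% of 463 lower genes, 10.9% of 220 higher genes and 13% of those not past. These shares are descriptions and were not tested.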
